A study of Mus musculus with 31 samples.

Results

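The cell cycle and proliferation genes are the genes that a cell turns on to copy its DNA, divide its chromosomes and split. A set of 40 mouse genes of this kind was sought by symbol in the RNA-seq counts of 3 fat depots, and 34 had a row among 17334 RefSeq transcript accessions. Tyms, Bub1, Kif20a, Nusap1, Racgap1 and Tpx2 were not analysed here. The depots were interscapular brown fat (iBAT), inguinal white fat (iWAT) and epididymal white fat (eWAT) of male C57BL/6J mice aged 8 weeks. All mice, day 0 included, first spent 8 days at thermoneutrality, the temperature at which a mouse needs no extra heat production; day 0 mice were killed then, and the others spent 2 or 4 days at 4 °C. The labels name no transgene and no genetic change. At days 0, 2 and 4 there were 3, 4 and 3 libraries of iBAT, 4, 3 and 5 of iWAT, and 3, 3 and 3 of eWAT, 31 in all. Libraries are called by depot and label number, such as iBAT516.

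A dividing cell passes through a fixed order of steps. Cyclin D and cyclin E with their kinases commit it to a round of division, the MCM proteins load on DNA as the helicase that opens it, and ribonucleotide reductase and thymidine kinase supply the bases for copying. Cyclin A and cyclin B with Cdk1 then drive mitosis, in which Aurora and Polo kinases, kinesin motors and centromere proteins move the chromosomes, and the ubiquitin ligase that Cdc20 activates ends it. Most of these RNAs are made only while a cell is cycling, so their level in whole tissue is often used as a measure of proliferation. Mature fat cells rarely divide. In mice, cold is known to set off division of precursor and blood vessel cells in brown fat, and inguinal fat also holds a lymph node, an organ in which lymphocytes divide.

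The promoters of 5 genes that the depot comparison below turns on are shown first, because members of the 2 arms of the programme, DNA copying and mitosis, differ in their promoter letters. The sequences are from RefSeq on GRCm38.p6, 5′ to 3′ on the strand of the gene, and end before the first base of the annotated gene. Capitals mark 3 motifs on either strand: the cell cycle homology region or CHR (TTTGAA or TTCAAA), the CCAAT box (CCAAT or ATTGG), and a core E2F motif (TTTNNCGC or GCGNNAAA). Mki67 (chr7:135716451-135716579), Top2a (chr11:99024200-99024389) and Cdk1 (chr10:69352913-69353112) lie on the minus strand. Rrm2 (chr12:24708054-24708253) and Mcm5 (chr8:75109309-75109467) lie on the plus strand.
Mki67: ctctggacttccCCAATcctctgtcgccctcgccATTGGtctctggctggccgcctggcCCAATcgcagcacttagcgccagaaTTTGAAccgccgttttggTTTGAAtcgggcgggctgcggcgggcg
Top2a: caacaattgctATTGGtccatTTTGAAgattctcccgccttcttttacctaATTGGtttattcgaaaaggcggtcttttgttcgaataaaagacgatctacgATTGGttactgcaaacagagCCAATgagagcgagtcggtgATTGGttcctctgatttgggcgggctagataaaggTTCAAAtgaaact
Cdk1: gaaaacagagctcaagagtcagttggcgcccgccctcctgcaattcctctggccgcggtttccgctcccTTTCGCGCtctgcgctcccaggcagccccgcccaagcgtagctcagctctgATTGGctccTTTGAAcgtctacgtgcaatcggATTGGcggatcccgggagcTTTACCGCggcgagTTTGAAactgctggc
Rrm2: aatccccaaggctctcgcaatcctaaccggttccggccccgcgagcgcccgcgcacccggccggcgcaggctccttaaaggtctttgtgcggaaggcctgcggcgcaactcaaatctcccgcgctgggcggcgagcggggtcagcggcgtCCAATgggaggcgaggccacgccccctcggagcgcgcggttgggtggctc
Mcm5: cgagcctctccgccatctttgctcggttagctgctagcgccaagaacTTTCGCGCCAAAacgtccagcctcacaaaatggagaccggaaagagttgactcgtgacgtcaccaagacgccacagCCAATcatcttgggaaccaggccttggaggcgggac

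The stretches of Mki67, Top2a and Cdk1 each hold 2 CHR letter runs and 2 or more CCAAT boxes, whereas those of Rrm2 and Mcm5 hold no CHR. In Mcm5 an E2F match on one strand overlaps a match on the other, which gives the unbroken capitals. Over windows of 300 bases (250 before and 50 after the start), 28 members had 30 promoters in the table used. A CHR was present in 56.7% of these, against 17.9% of all 32851 promoters, and a CCAAT box in 90% against 37.4%. The E2F core was present in 16.7% of member promoters and in 5.17% of all. Of the 16 promoters of members that act in mitosis, 14 (87.5%) held a CHR and 0 the E2F core. Of the 10 promoters of members that act in DNA copying, 1 held a CHR and 4 (40%) the E2F core. These matches describe letters in a window and not sites shown to be bound. Ccnd1, Ccna2, Mcm4, Foxm1, Stmn1 and Aurkb had no entry.

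Library totals were 1577168 to 3756389 counts in iBAT, 1502823 to 5527239 in iWAT and 3193060 to 4033224 in eWAT, and the 34 genes together had 261 to 938 reads per library in iBAT, 787 to 6265 in iWAT and 983 to 2874 in eWAT. Levels below are CPM, counts scaled to a common library size with TMM factors. Brown adipocyte markers (Ucp1 and 4 others) summed to between 8760 and 45500 CPM in every iBAT library, and the 5 adipocyte markers with a row (Adipoq and 4 others) to between 6230 and 47000 CPM in every library. Pparg, one of these 5, had no count in any iWAT or eWAT library in the row used. Lymphocyte markers summed to between 993.6 and 3752 CPM in every iWAT library, against 0 to 29.9 CPM in iBAT and 12.9 to 50.8 CPM in eWAT. Markers of testis and epididymis reached 31800 CPM in eWAT532, 15900 in eWAT516, 13400 in eWAT551 and 4470 in iWAT555. In iBAT539 and iBAT548 only 159 and 57 features had a count of 1, against 1014 or more in the other iBAT libraries, so a missing value in these 2 libraries is not shown to be a count of 0.

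Cold changed no cell cycle gene past the test in any depot. The 34 genes summed to 244.2 ± 34.5, 267.7 ± 80 and 217.6 ± 19.2 CPM in iBAT at days 0, 2 and 4 (SD, n = 3, 4 and 3), to 975.4 ± 472, 588.3 ± 162 and 702.4 ± 229 CPM in iWAT (n = 4, 3 and 5), and to 401.6 ± 112, 508.7 ± 249 and 300.4 ± 50.9 CPM in eWAT (n = 3 each). At each day iWAT had the highest mean, and the day 0 libraries of iWAT alone ran from 428 to 1540 CPM. In bulk RNA, fewer cycling cells and less RNA per cycling cell cannot be told apart. Without Ccnd1, Pcna and Stmn1, 3 members that non-dividing cells also express, the sum was 166.8 ± 8.52, 151.2 ± 45.6 and 142.7 ± 60.7 CPM in iBAT and 650.6 ± 341, 447.9 ± 93.6 and 475 ± 174 CPM in iWAT at days 0, 2 and 4, with overlapping days in both depots. In eWAT it was 227.9 ± 14.8, 163 ± 11.7 and 203.1 ± 11.5 CPM at days 0, 2 and 4, and the 3 day 2 libraries (149 to 171 CPM) lay below the 3 day 0 libraries (211 to 239 CPM). Of single eWAT features, 2.67% lay below day 0 without overlap at day 2. Mcm7, whose day groups overlapped, weighed much in that fall, with a mean of 60.6 CPM at day 0 and 28.9 CPM at day 2. The sums were not tested.

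**Figure D1:**
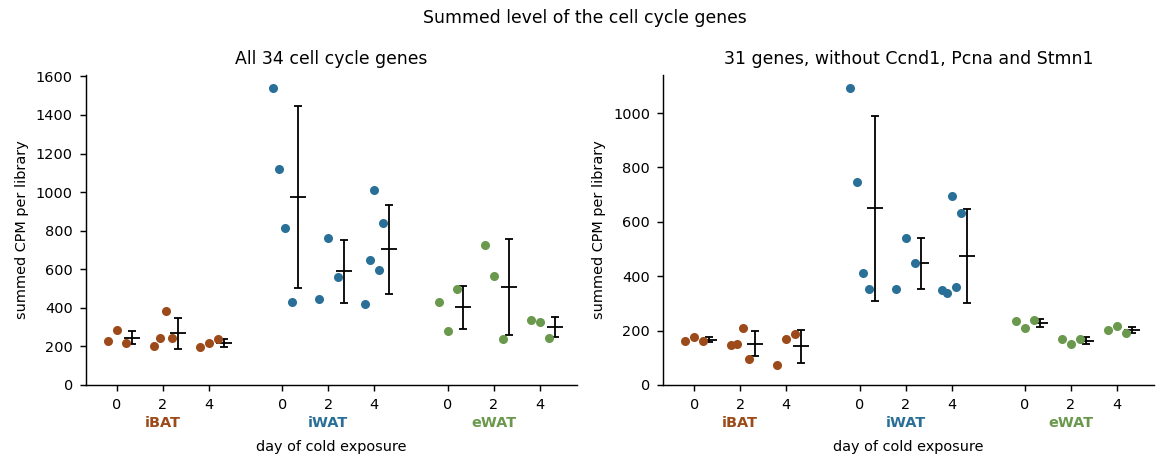
Summed CPM of the cell cycle genes in each library (points) by depot and day of cold, with mean ± SD as bars, for all 34 genes and without Ccnd1, Pcna and Stmn1. The iWAT libraries run from 419 to 1540 CPM for all 34 genes, and those of iBAT from 198 to 384 CPM.

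After the filter on low counts, 16 of the 34 genes could be tested in iBAT, 31 in iWAT and 24 in eWAT; Mcm6, Ccnb2 and Birc5 passed nowhere. With edgeR's quasi-likelihood test and Benjamini-Hochberg adjustment over all features at 0.05, 0 members passed in each of the 9 comparisons of days within a depot. In iBAT at day 2, 0.133% of all features rose and 0.0242% fell; in each of the 8 other comparisons 0% did. At an unadjusted p under 0.05 there was 1 member in iBAT at day 2 against day 0, 1 in iWAT at day 2 and 1 in eWAT at day 2, 2 in eWAT at day 4 against day 2, and none elsewhere. The share of all features past that mark was 12.3% in iBAT at day 2, 10.7% in iWAT at day 2, 1.06% in eWAT at day 2, and 4.34% in eWAT at day 4 against day 2. In the comparisons with no such member it was 7.04% in iBAT at day 4, 8.27% in iWAT at day 4, 2.76% in eWAT at day 4, 3.18% in iBAT at day 4 against day 2 and 5.21% in iWAT at day 4 against day 2. DESeq2 also called 0 members in all 9 comparisons, as did the fits with a library score as covariate or with any 1 library left out. Of all 8270 iBAT features, DESeq2 called 185 higher and 121 lower at day 2, more than in any of the other 8 comparisons.

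In iBAT 6 of 16 tested members had a log2 change above 0 at day 2 and 5 at day 4, against 50.5% and 47.6% of all features. The median log2 change of the tested members in iBAT was −0.06 at day 2 and −0.38 at day 4, against 0.01 and −0.04 over all features. In iWAT it was −0.50 at day 2 and −0.41 at day 4, against −0.08 and −0.01, and 2 of 31 members were above 0 at day 2 and 3 at day 4, against 45.8% and 49.2% of all features. In eWAT it was −0.33 at day 2 and 0.03 at day 4, against 0.01 and −0.01, and 6 and 13 of 24 members were above 0, against 50.5% and 49.5% of all features. At day 4 against day 2 the members above 0 were 5 of 16 in iBAT, 21 of 31 in iWAT and 15 of 24 in eWAT, against 44.8%, 54.2% and 49.6% of all features. Both iWAT comparisons share the 4 day 0 libraries, of which iWAT516 had the highest sum (1542 CPM) and iWAT522 a sum of 428.4 CPM, so their signs are not separate evidence. Markers of other cells also differed between the days in iWAT. The 6 stromal progenitor markers with a row (Col1a1 and Col3a1 among them) summed to 1430 to 1640 CPM in iWAT at day 0, then 514 to 613 CPM at day 2 and 499 to 1150 CPM at day 4, and neither cold day overlapped with day 0. Most of their reads were collagen: over all libraries Col3a1 had 56402 and Col1a1 50111, against 17190 for Ly6a, the next. Of single iWAT features, 3.83% lay below day 0 without overlap at day 2 and 1.14% at day 4. Of the 5 stromal markers that were tested, 4 had a log2 change below 0 at day 2 and 5 at day 4, and edgeR called 0 of them on either day (3 and 2 at an unadjusted p under 0.05). The 8 skeletal muscle markers summed to 23 to 2330 CPM at day 0, then 13.3 to 61 CPM at day 2 and 14.3 to 836 CPM at day 4, and the 6 keratinocyte markers to 91.4 to 13100, then 217 to 2020 and 95.9 to 4170 CPM. None of these markers was at 0 in every iWAT library, and their part in the members' changes was not tested.

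The 95% intervals were wide: their median width on the log2 scale was 3.99 and 4.24 in iBAT at days 2 and 4, 2.59 and 2.26 in iWAT, and 2.52 and 2.52 in eWAT. A doubling lay outside the interval (upper bound under 1) for 22 of 31 members in iWAT at day 2 and for 22 at day 4, for 12 and 8 of 24 in eWAT, and for 2 and 4 of 16 in iBAT. A fall by a log2 change of 1 lay outside it (lower bound above −1) for only 2 and 3 of 31 members in iWAT, 6 and 4 of 24 in eWAT, and 4 and 4 of 16 in iBAT.

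**Figure D2:**
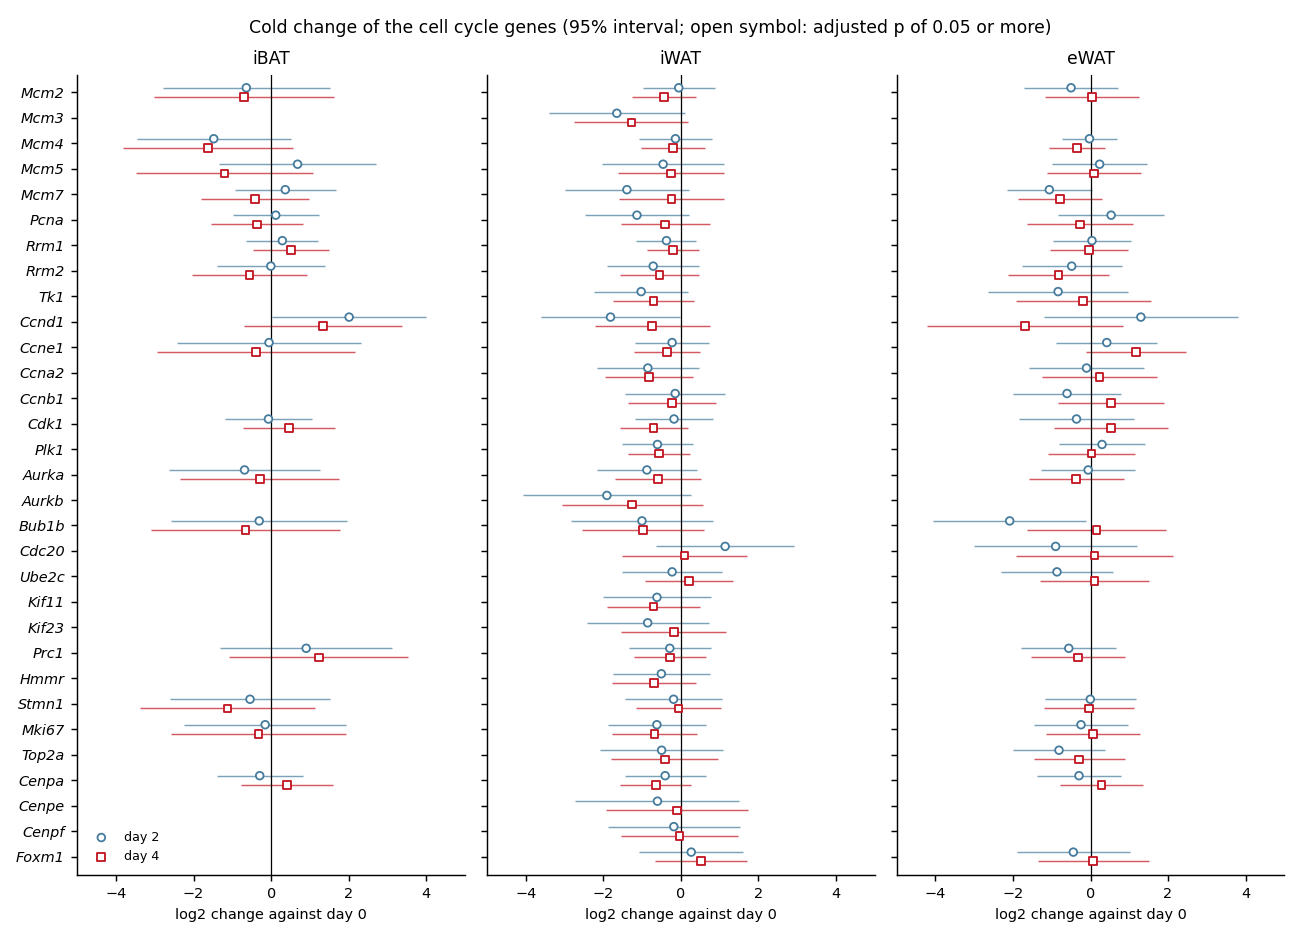
Log2 change at day 2 (circles) and day 4 (squares) against day 0 for each tested member in iBAT, iWAT and eWAT, with 95% intervals; genes run from DNA licensing at the top to the transcription factor Foxm1 at the bottom. All symbols are open, since none had an adjusted p under 0.05, and most intervals cover 0.

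Mki67 encodes Ki-67, the coat of mitotic chromosomes that pathologists stain to count dividing cells (NM_001081117, chromosome 7, 135689784 to 135716450, GRCm38.p6). In iBAT it had 8.14, 7.86 and 8.59 CPM at day 0, then 5.36, 9.85, 10.7 and 2.04 CPM at day 2, and 0, 11.6 and 7.92 CPM at day 4. The highest cold libraries stood a little above day 0, and the lowest cold libraries were iBAT539 and iBAT548. In iWAT it had 103, 50.6, 13 and 14.4 CPM at day 0, then 27.9, 32.7 and 28.6 CPM at day 2, and 24.7, 22, 33.8, 19.6 and 38.3 CPM at day 4. All cold iWAT libraries lay inside the day 0 range, which spans from 13 to 103 CPM. In eWAT it had 5, 7.45 and 8.55 CPM at day 0, then 3.27, 8.81 and 5.64 CPM at day 2, and 8.46, 10.2 and 3.69 CPM at day 4, and the 3 groups overlapped. The log2 change at day 4 was −0.33 (95% interval −2.58 to 1.92) in iBAT, −0.68 (−1.77 to 0.41) in iWAT and 0.07 (−1.14 to 1.27) in eWAT.

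Top2a, DNA topoisomerase II alpha, untangles copied chromosomes (NM_011623, chromosome 11, 98992947 to 99024199). In iBAT, where it was below the filter, it had 2.85, 3.02 and 3.26 CPM at day 0, then 3.83, 2.59, 2.91 and 0 CPM at day 2, and 0, 3.67 and 2.33 CPM at day 4, the values of 0 being those of iBAT539 and iBAT548. In iWAT it had 21.6, 55.7, 7.11 and 13.3 CPM at day 0, then 7.84, 24.6 and 20.6 CPM at day 2, and 19.7, 4.87, 24.4, 6.04 and 35.3 CPM at day 4. In eWAT it had 5.6, 10.2 and 4.4 CPM at day 0, then 4.28, 3.23 and 3.76 CPM at day 2, and 4.12, 3.65 and 8.86 CPM at day 4. The groups overlapped in iBAT and iWAT, and in eWAT the day 2 libraries lay just below those of day 0. In eWAT 2.67% of all features were lower at day 2 without overlap, and among the 24 tested members these were Top2a, Ube2c and Bub1b. The day 2 change of Top2a in eWAT was −0.81 (SE 0.53, edgeR adjusted p = 1).

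Bub1b, a kinase of the checkpoint that holds mitosis until every chromosome is attached, had the smallest p in eWAT at day 2. It had 3.2, 2.55 and 9.52 CPM at day 0, then 0.252, 0.881 and 2.35 CPM at day 2, and 9.61, 5.35 and 2.46 CPM at day 4. The 3 day 2 libraries lay below all others of eWAT, with a log2 change of −2.09 against day 0 (SE 0.88, edgeR adjusted p = 1) and, at day 4 against day 2, of 2.24 (edgeR adjusted p = 0.823). Ube2c, which hands ubiquitin to the ligase that ends mitosis, averaged 3.55 ± 2.2 CPM at day 2 and 6.51 ± 1.65 CPM at day 0 (SD, n = 3 each). At day 4 against day 2, 4.33% of all eWAT features were higher and 3.44% lower without overlap. Of the tested members Ccnb1 and Bub1b were higher there and Mcm4 lower. In the other comparisons no tested member lay wholly above the earlier day in iBAT at day 2 (5.78% of features did), iWAT at day 2 (8.15%) or day 4 (0.856%), or eWAT at day 2 (2.12%) or day 4 (4.9%), nor at day 4 against day 2 in iBAT (2.08%) or iWAT (1.43%). No tested member lay wholly below it in iWAT at day 4 (1.14%), or at day 4 against day 2 in iBAT (2.49%) or iWAT (2.72%).

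The genes of replication licensing are the MCM helicase subunits. Mcm4 had the smallest p of all members in iBAT at day 4. It had 22.8, 20 and 19 CPM at day 0, then 10.7, 9.33, 6.79 and 1.36 CPM at day 2, and 0, 8.56 and 11.2 CPM at day 4. Each cold library lay below each day 0 library, with or without iBAT539 and iBAT548, yet the log2 change was −1.48 at day 2 (SE 0.91, edgeR adjusted p = 0.53) and −1.63 at day 4 (SE 1.00, adjusted p = 0.817). Of all iBAT features, 9.95% were lower without overlap at day 2 and 12.4% at day 4. Among the 16 tested members these were Mcm4 at day 2, and Mcm4 and Rrm2 at day 4. Mcm4 in eWAT had 27.4, 21.3 and 25.4 CPM at day 0, then 25.7, 25 and 21.6 CPM at day 2, and 19.4, 18.7 and 20.9 CPM at day 4. The day 4 libraries again lay below those of day 0 (as 4.13% of all features did), with a log2 change of −0.35 (SE 0.32). In iWAT it averaged 46.7 ± 17.3, 43.1 ± 11.5 and 40 ± 17.5 CPM at days 0, 2 and 4.

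Mcm3 and Mcm7 are 2 more helicase subunits, and had among the smallest p values of iWAT (Mcm3) and eWAT (Mcm7). Mcm3 in iWAT had 12.4, 15.1, 1.78 and 3.54 CPM at day 0, then 2.03, 1.89 and 3.98 CPM at day 2, and 1.47, 1.39, 6.64, 0.755 and 6.16 CPM at day 4. Only iWAT516 and iWAT517 were high at day 0, and the other 2 day 0 libraries lay among the cold ones; the change was −1.65 at day 2 (SE 0.82, edgeR adjusted p = 0.485) and −1.28 at day 4 (SE 0.69, adjusted p = 0.693). Mcm7 in eWAT had 38, 46.8 and 96.9 CPM at day 0, then 45.8, 19.7 and 21.2 CPM at day 2, and 35, 38.9 and 33.5 CPM at day 4. Its groups overlapped, and eWAT518 stood highest. The log2 change was −1.06 at day 2 (SE 0.49) and −0.79 at day 4 (SE 0.49), with an edgeR adjusted p of 1 for each. Mcm6 had 53, 8 and 12 reads over all iWAT libraries of days 0, 2 and 4, and 6, 0 and 0 reads in iBAT, too few to test.

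Of the S phase genes, Pcna is the sliding clamp that holds DNA polymerase on its template (NM_011045, chromosome 2, 132249286 to 132253180). In iBAT it had 42.7, 72 and 37.6 CPM at day 0, then 29.1, 50.8, 103 and 27.1 CPM at day 2, and 48.3, 26.3 and 34 CPM at day 4. In iWAT it had 237, 172, 193 and 31.5 CPM at day 0, then 50.5, 110 and 59.3 CPM at day 2, and 35, 155, 177, 123 and 101 CPM at day 4. In eWAT it had 36.8, 26.4 and 93.5 CPM at day 0, then 67.2, 124 and 38.1 CPM at day 2, and 65.9, 41.6 and 26.3 CPM at day 4. All groups of a depot overlapped, and the day 2 changes were 0.12 in iBAT, −1.13 in iWAT and 0.53 in eWAT (edgeR adjusted p = 0.949, 0.529 and 1). Rrm1 and Rrm2 are the large and small subunits of ribonucleotide reductase. Rrm1 averaged 25.6 ± 5.49, 29.7 ± 9.7 and 34.8 ± 16.8 CPM in iBAT at days 0, 2 and 4, and in iWAT its 3 day 2 libraries (31.5 ± 0.896 CPM) lay below the 4 of day 0 (40 ± 6.01 CPM), as 3.83% of all iWAT features did.

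Ccnd1, cyclin D1, links growth signals to the cell cycle (NM_007631, chromosome 7, 144929931 to 144939831) and varied widely between libraries. In iBAT it had 8.95, 26.6 and 10.1 CPM at day 0, then 13.8, 27.5, 68.4 and 117 CPM at day 2, and 76.4, 13.5 and 10.3 CPM at day 4. In iWAT it had 181, 153, 190 and 15.3 CPM at day 0, then 17.4, 78.7 and 20.6 CPM at day 2, and 15.9, 121, 113, 104 and 45.5 CPM at day 4. In eWAT it had 130, 20.6 and 152 CPM at day 0, then 475, 259 and 12.2 CPM at day 2, and 49.9, 36.7 and 9.6 CPM at day 4. Every group holds libraries that differ several-fold, and the day groups of each depot overlapped. At day 2 the log2 change was 2.01 in iBAT (SE 0.91, edgeR adjusted p = 0.401), −1.81 in iWAT (SE 0.84, adjusted p = 0.468) and 1.30 in eWAT (SE 1.11, adjusted p = 1). At day 4 against day 2 it was −2.99 in eWAT (edgeR adjusted p = 0.823).

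Of the keratinocyte markers, Krt17, which other epithelia also make, held 98.8% of the reads of the 6, so their sum is close to its level alone. In iBAT at day 2 they summed to 54.3, 499.2, 1607 and 1900 CPM in the libraries with 13.8, 27.5, 68.4 and 117 CPM of Ccnd1, and iBAT548, with 76.4 CPM of Ccnd1, had 2243 CPM. In eWAT the 3 libraries with the highest keratinocyte sums, eWAT538 (4718 CPM), eWAT518 (3319 CPM) and eWAT532 (3055 CPM), were those with 259, 152 and 475 CPM of Ccnd1; eWAT516, with 130 CPM of Ccnd1, had a keratinocyte sum of only 276.6 CPM. Krt5 and Krt14, keratins of basal epidermis, ran otherwise in eWAT: they had 69 and 33.4 CPM in eWAT516 and 29.4 and 57.4 CPM in eWAT551 (36.7 CPM of Ccnd1), against 4.99 and 6.75 CPM in eWAT538, 3.17 and 3.17 CPM in eWAT518, and 22.1 and 7.05 CPM in eWAT532. In iWAT the 3 with 153 to 190 CPM of Ccnd1, iWAT516, iWAT517 and iWAT518, had sums of 13100, 5957 and 6635 CPM, and iWAT522, with 15.3 CPM, had 91.4 CPM. In iBAT, Krt5, Krt14, Krt10 and Dsp, 4 of the 6 markers, had no count in any library. The library score, described below, measures spread within groups. It held 33.8%, 32.3% and 31.7% of the within-group variance in iBAT, iWAT and eWAT, and its sign was set by Krt17. In iBAT at day 2 it was −37.2, 0.566, 55.8 and 52.6, in the order above. In iWAT it was 27.2, 34.2, 46.2 and −62.3 at day 0. There it was −51.4, −7.46 and −41.1 at day 2, and −44.2, 52.2, 31.1, 30.4 and −14.9 at day 4. The part of these markers in the Ccnd1 values was not tested.

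**Figure D3:**
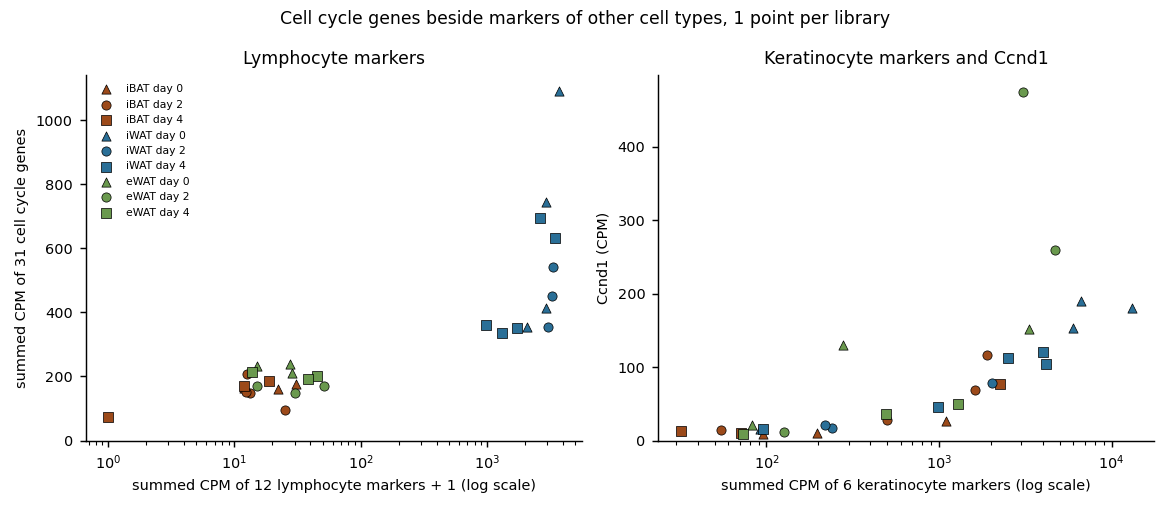
Left, the sum of 31 cell cycle genes (without Ccnd1, Pcna and Stmn1) against the sum of 12 lymphocyte markers plus 1 on a log axis. Right, Ccnd1 against the sum of 6 keratinocyte markers, nearly all of it Krt17, on a log axis, 1 point per library, with color for depot and shape for day; all iWAT libraries lie at 993.6 CPM or more of lymphocyte markers, and Ccnd1 reaches 475 CPM in a library with 3055 CPM of keratinocyte markers.

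Of the other cyclins, Ccne1 (cyclin E1) had the smallest p in eWAT at day 4. It had 2.2, 4.25 and 2.2 CPM at day 0, then 2.01, 5.29 and 4.23 CPM at day 2, and 10.5, 5.11 and 4.18 CPM at day 4. The highest was eWAT548, the groups overlapped, and the day 4 change was 1.17 (SE 0.58, edgeR adjusted p = 1). Ccna2, cyclin A2, had 53.4, 28.7, 20.7 and 7.37 CPM in iWAT at day 0, then 6.97, 28.1 and 11.2 CPM at day 2, and 8.82, 17.2, 16.6, 10.6 and 22.4 CPM at day 4. Cdk1, the kinase that starts mitosis, had 80.3, 24.1, 32 and 25.9 CPM in iWAT at day 0, then 32.5, 41.9 and 34.4 CPM at day 2, and 20.3, 17.9, 25.5, 16.6 and 41.6 CPM at day 4. For both genes iWAT516 was the highest library, and the others of day 0 lay within or just above the cold range. The day 4 change was −0.83 for Ccna2 (SE 0.53, edgeR adjusted p = 0.758) and −0.70 for Cdk1 (SE 0.41, adjusted p = 0.725). Ccnb2 had 10 reads over all 31 libraries and Birc5, survivin, 75.

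Among the mitotic kinases, Aurkb, Aurora B, had 10.7, 5.11, 0 and 1.18 CPM in iWAT at day 0, then 1.45, 1.08 and 0.937 CPM at day 2, and 1.76, 0.232, 4.43, 0.755 and 2.01 CPM at day 4. Day 0 held both the highest values and the 0, and the day 2 change was −1.91 (SE 1.02, edgeR adjusted p = 0.513). Plk1, Polo-like kinase 1, averaged 19.2 ± 9.18, 12.9 ± 2.05 and 12.8 ± 3.1 CPM in iWAT at days 0, 2 and 4. Cdc20, which activates the ligase that ends mitosis, was the one tested member of iWAT with a day 2 change above 0.5: 8.84 ± 2.77 CPM at day 2 and 3.76 ± 3.7 CPM at day 0 (log2 change 1.14, SE 0.83, edgeR adjusted p = 0.601). Prc1, which bundles the microtubules between separating chromosomes, had 1.22, 2.42 and 2.37 CPM in iBAT at day 0, then 6.89, 1.04, 6.79 and 0 CPM at day 2, and 6, 4.28 and 2.8 CPM at day 4. It was the 1 tested member of iBAT whose day 4 libraries all lay above day 0, as 6.7% of all features did (log2 change 1.23, SE 1.06, edgeR adjusted p = 0.862).

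Foxm1 is the transcription factor that turns on many genes of mitosis, several of them through CHR promoters. In iBAT it had 1.63, 1.51 and 2.07 CPM at day 0, then 1.53, 3.11, 0 and 0 CPM at day 2, and 0, 1.22 and 1.4 CPM at day 4, which left it below the filter. In iWAT it had 5.62, 8.02, 4.15 and 4.13 CPM at day 0, then 4.36, 8.93 and 7.03 CPM at day 2, and 5, 6.03, 3.32, 3.02 and 20.2 CPM at day 4. In eWAT it had 2.6, 4.68 and 2.44 CPM at day 0, then 1.26, 1.47 and 4.23 CPM at day 2, and 3.43, 1.95 and 4.92 CPM at day 4. The day groups overlapped in iWAT and eWAT, with iWAT555 far above the rest. In iBAT the 3 day 4 libraries lay below the 3 of day 0, but on only 16 reads in all at day 0 and 5 at day 4. The day 4 value of 0 is that of iBAT548, where a missing value is not shown to be a count of 0. Of the iBAT features that passed the filter, 12.4% were lower without overlap at day 4. The day 4 change was 0.52 in iWAT (SE 0.56, edgeR adjusted p = 0.883) and 0.07 in eWAT (SE 0.64, adjusted p = 1).

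The cold change was also compared between depots in a fit of all 31 libraries, in which 31 members were tested. For each of the 6 differences in cold change (3 pairs of depots, days 2 and 4), edgeR called 0 members and 0% of all features. DESeq2 called 0 members, and up to 81 of 11041 features higher and up to 21 lower. At an unadjusted p under 0.05 there were Ccnd1 and Ccna2 for iBAT against iWAT at day 2 (log2 differences in change of 3.68, SE 1.45, and 2.15, SE 0.97) and Ccnd1 for iWAT against eWAT at day 2 (−3.09, SE 1.45), with edgeR adjusted p values of 0.455, 0.47 and 0.777; 10.4% and 5.33% of all features were past that mark in these comparisons. For Mki67 the difference in day 4 change was 0.33 (95% interval −1.77 to 2.43) for iBAT against iWAT and −0.80 (−2.84 to 1.23) for iWAT against eWAT.

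Between depots, unlike between days, cell cycle genes passed the test. At day 0, 15 of 31 tested members were lower in iBAT than in iWAT and none was higher, against 9.77% of all features that were lower. Passing the filter through iWAT alone favours such a difference, so the 16 members that also passed in iBAT alone are the ones to read: 8 of these were lower, against 6.3% of the features that passed in both depots, and their median log2 difference was −2.12, against 0.07. At day 2, 8 of 31 were lower in iBAT (9.74% of all features), 4 of the 16 (6.87%), with a median of −1.62. At day 4, 14 of 31 were lower (11.7%), 6 of the 16 (7.72%), with a median of −1.82. Without iBAT516, iBAT517 or iBAT518 the day 0 count of 15 was 5, 8 or 6; without iWAT539 the day 2 count of 8 was 5; and without iBAT548 or iBAT550 the day 4 count of 14 was 6 or 8.

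**Figure D4:**
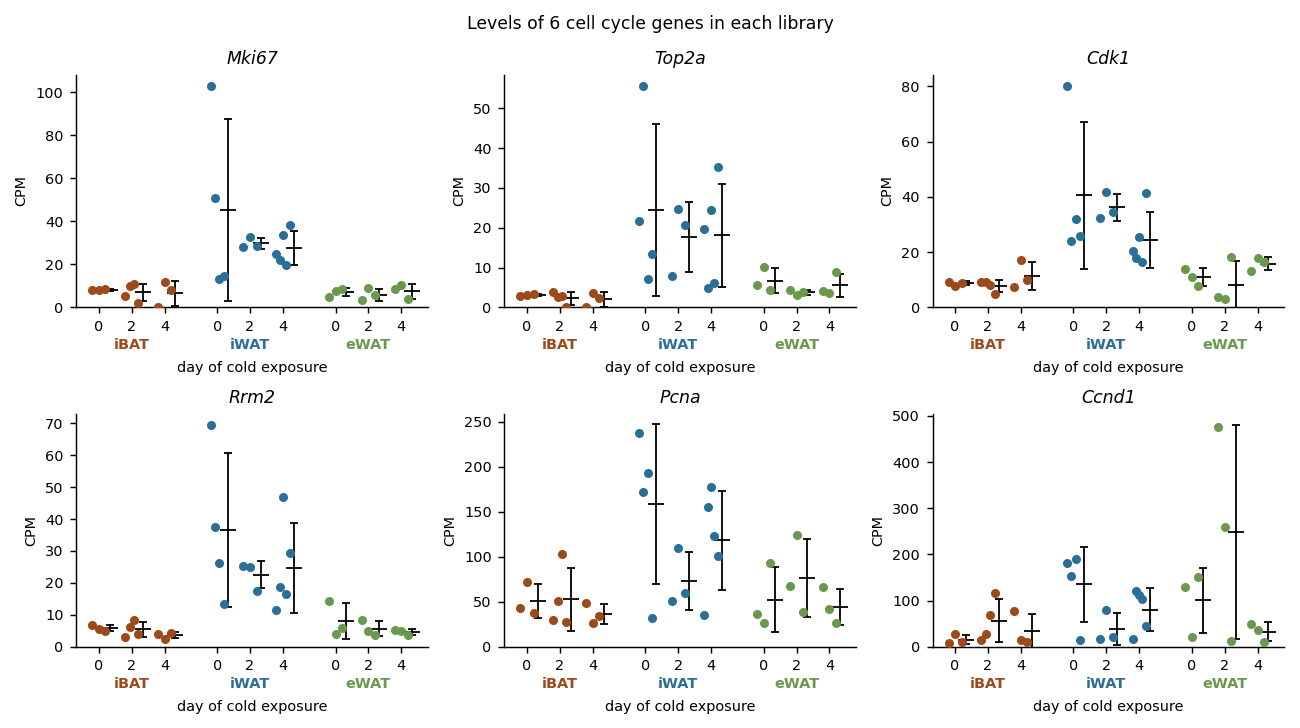
CPM of Mki67, Top2a, Cdk1, Rrm2, Pcna and Ccnd1 in each library (points) by depot and day of cold, with mean ± SD as bars. For Mki67, Top2a, Cdk1 and Rrm2 at day 0 the 4 iWAT libraries lie above the 3 of iBAT, as for 14.9% of all features. Ccnd1 reaches its highest value, 475 CPM, in eWAT at day 2.

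By role, at day 0 edgeR called lower in iBAT than in iWAT 3 of 5 tested licensing genes, 2 of 4 S phase genes, 3 of 5 cyclins and Cdk1, 2 of 6 mitotic kinases and checkpoint genes, 3 of 5 spindle genes, 2 of 5 chromosome genes and not Foxm1. Among the 16 that passed the filter in iBAT alone, these were 3 of 4 licensing genes, 1 of 3 S phase genes, 2 of 3 cyclins and Cdk1, 0 of 2 mitotic kinases and checkpoint genes, 1 of 2 spindle genes and 1 of 2 chromosome genes. Mki67 averaged 8.2 ± 0.366 CPM in iBAT and 45.3 ± 42.3 CPM in iWAT (log2 difference −2.47, SE 0.77, edgeR adjusted p = 0.0266). Rrm2, the ribonucleotide reductase subunit made in S phase (NM_009104, chromosome 12, 24708254 to 24714146), had 6.92, 5.44 and 5.03 CPM in iBAT, against 69.6, 37.4, 26.1 and 13.3 CPM in iWAT. The groups were clear of each other, with a log2 difference of −2.66 (SE 0.57, edgeR adjusted p = 0.00165). Of all features, 14.9% lay lower in iBAT without overlap at day 0. Cdk1 (NM_007659, chromosome 10, 69335146 to 69352912) had 9.36, 7.86 and 8.88 CPM in iBAT and 24.1 to 80.3 CPM in iWAT, a log2 difference of −2.22 (SE 0.55, adjusted p = 0.00526). Mcm5 (NM_008566, chromosome 8, 75109468 to 75128439) averaged 3.84 ± 2.37 CPM in iBAT and 34.8 ± 20 CPM in iWAT (log2 difference −3.15, SE 0.82, edgeR adjusted p = 0.00845).

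The remaining calls at day 0 were Ccna2 (log2 difference −3.57), Tk1, the salvage enzyme for thymidine (−3.94), Plk1 (−2.55), Kif11, the motor that separates spindle poles (−2.84), Aurkb (−4.91), Kif23, a motor of cytokinesis (−3.59), Top2a (−3.00), Prc1 (−2.44), Mcm7 (−2.14), Mcm2 (−2.10) and Ccnd1 (−3.14). Of these, Ccna2, Tk1, Plk1, Kif11, Aurkb, Kif23 and Top2a did not pass the filter in iBAT alone. The edgeR adjusted p values of the 11 ran from 0.00136 for Ccna2 to 0.0452 for Ccnd1. Aurkb and Ccnd1 overlapped between the depots although they passed: Aurkb had 0, 0.302 and 0 CPM in iBAT and 0 to 10.7 CPM in iWAT. Rrm1, Ccne1, Pcna, Cenpa and Foxm1 were among the 16 that did not pass. Rrm1 averaged 25.6 ± 5.49 CPM in iBAT and 40 ± 6.01 CPM in iWAT (log2 difference −0.65, 95% interval −1.46 to 0.16), and Ccne1 6.69 ± 2.48 CPM in iBAT and 9.99 ± 3.94 CPM in iWAT (−0.57, −2.12 to 0.97).

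At day 2 the genes lower in iBAT than in iWAT were Plk1, Cdk1, Mcm4, Mcm2, Rrm2, Kif11, Top2a and Ccnb1, cyclin B1, of which Cdk1, Mcm4, Mcm2 and Rrm2 passed the filter in iBAT alone. Mcm4 averaged 7.05 ± 4.13 CPM in iBAT (n = 4) and 43.1 ± 11.5 CPM in iWAT (n = 3), with a log2 difference of −2.60 (SE 0.64, edgeR adjusted p = 0.00538). Plk1, tested through iWAT alone, averaged 1.19 ± 1.04 CPM in iBAT (n = 4) and 12.9 ± 2.05 CPM in iWAT (n = 3), with a log2 difference of −3.31 (SE 0.73, edgeR adjusted p = 0.00225). At day 4 they were Rrm2, Mcm5, Tk1, Kif23, Mcm4, Top2a, Kif11, Foxm1, Plk1, Mcm2, Mcm7, Stmn1 (stathmin, which takes microtubules apart), Ccna2 and Ube2c, of which Rrm2, Mcm5, Mcm4, Mcm2, Mcm7 and Stmn1 passed the filter in iBAT alone. Rrm2 averaged 3.58 ± 0.986 CPM in iBAT (n = 3) and 24.6 ± 14.1 CPM in iWAT (n = 5), with a log2 difference of −2.75 (SE 0.58, edgeR adjusted p = 0.00163). Rrm2 and Mcm2 passed at all 3 days, as did Plk1, Kif11 and Top2a, which entered the test through iWAT alone. Mki67 did not pass at day 2 (−2.06, SE 0.73, edgeR adjusted p = 0.0554) or day 4 (−2.14, SE 0.77, adjusted p = 0.0528), although on both days all iBAT libraries lay below all of iWAT, as they did for 18.7% of all features at day 2 and 12.8% at day 4. At day 4, without iBAT539 and iBAT548, Mcm7, Ube2c, Kif11, Stmn1 and Foxm1 no longer passed.

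**Figure D5:**
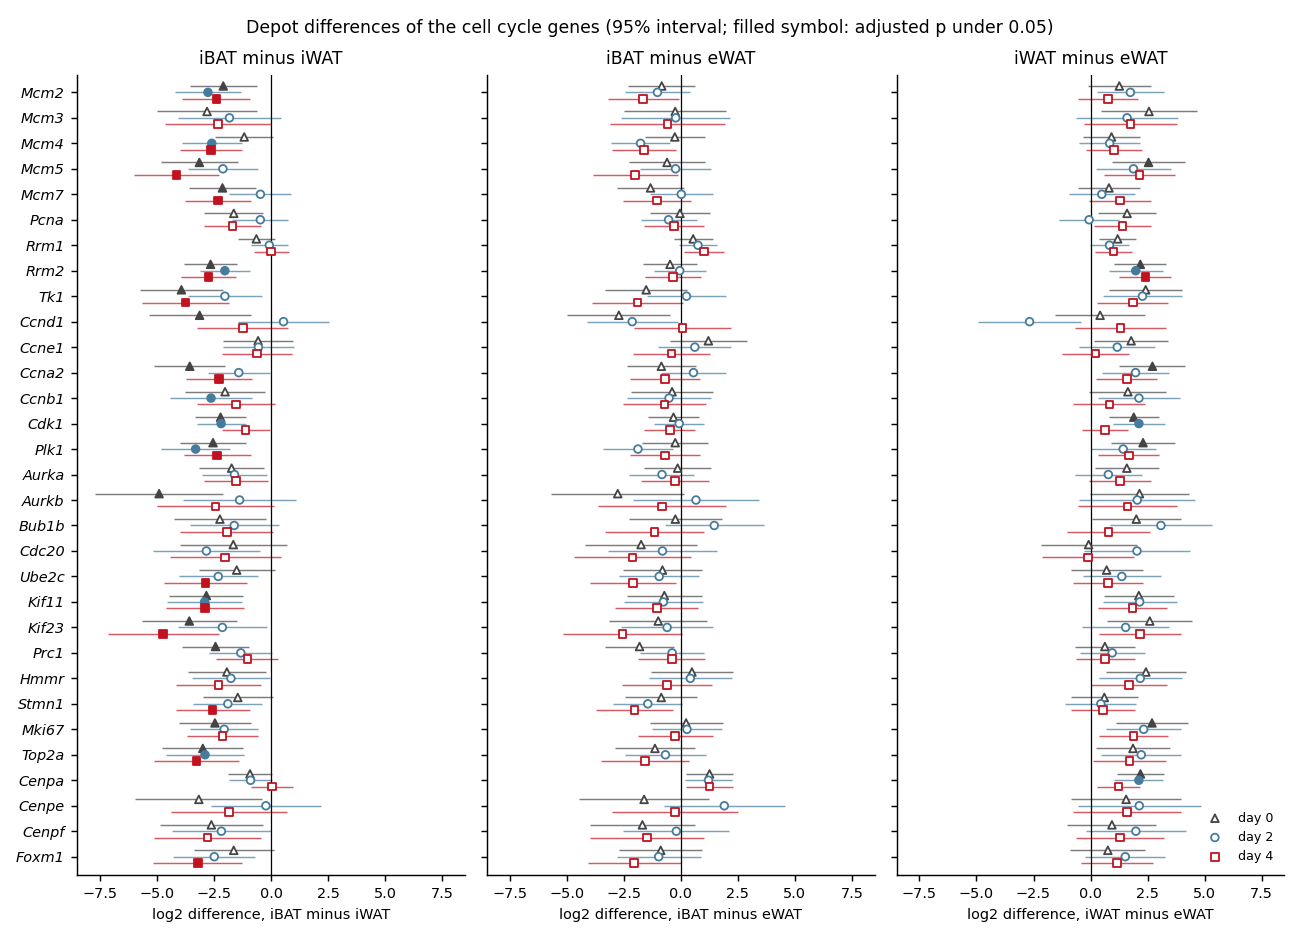
Log2 difference of each tested member between depots at day 0 (triangles), day 2 (circles) and day 4 (squares), with 95% intervals; filled symbols have an edgeR adjusted p under 0.05. Filled symbols lie left of 0 for iBAT minus iWAT (15, 8 and 14 genes) and right of 0 for iWAT minus eWAT (7, 3 and 1 genes), and iBAT minus eWAT has none.

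Against eWAT, iWAT was higher for 7 of 31 members at day 0 (5.01% of all features), 3 at day 2 (5.03%) and 1 at day 4 (4.49%), and lower for none. All of these were among the 24 members that passed the filter in both depots alone, whose median log2 differences were 1.62, 1.64 and 1.20, against −0.03, −0.04 and 0.05 over the features that did (3.78%, 4.03% and 3.68% of them higher). At day 0 they were Cenpa, the histone variant that marks the centromere, Rrm2, Ccna2, Cdk1, Mki67, Plk1 and Mcm5. Cenpa averaged 25.3 ± 14.4 CPM in iWAT and 5.53 ± 1.21 CPM in eWAT (log2 difference 2.19, SE 0.50, edgeR adjusted p = 0.00589). Mki67 averaged 45.3 ± 42.3 CPM in iWAT and 7 ± 1.82 CPM in eWAT (2.70, SE 0.78, edgeR adjusted p = 0.0302). At day 2 Cenpa, Cdk1 and Rrm2 passed, and at day 4 only Rrm2, with 24.6 ± 14.1 CPM in iWAT and 4.61 ± 0.816 CPM in eWAT (2.41, SE 0.55, edgeR adjusted p = 0.00516). The count of 7 at day 0 was 1 without iWAT516 or eWAT517, 2 without eWAT516 or eWAT518, 4 without iWAT517 and 12 without iWAT522, and the count of 3 at day 2 was 1 without iWAT538 and 0 without eWAT538.

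Between iBAT and eWAT edgeR called 0 of 31 members at each day, while 5.05% of all features were higher in iBAT and 5.21% lower at day 0, 7.29% and 10.5% at day 2, and 6.67% and 11.3% at day 4. At an unadjusted p under 0.05 there were 3, 4 and 8 members at days 0, 2 and 4 (22.8%, 31.8% and 33% of all features), and DESeq2 called 2, 2 and 4. Cenpa was among the unadjusted ones at all 3 days, with 13.3 ± 2.42 CPM in iBAT and 5.53 ± 1.21 CPM in eWAT at day 0 (log2 difference 1.26, SE 0.51, edgeR adjusted p = 0.122). Mki67 averaged 8.2 ± 0.366 CPM in iBAT and 7 ± 1.82 CPM in eWAT at day 0, with a log2 difference of 0.23 whose 95% interval ran from −1.37 to 1.83. The median width of the 95% intervals of the 31 members was 3.33 on the log2 scale at day 0.

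Lymphocyte markers differed between the depots in the same direction as the cell cycle genes. All 11 tested lymphocyte markers (of 12 with a row) were lower in iBAT than in iWAT and higher in iWAT than in eWAT at each of the 3 days. The 12 summed to 20.7 ± 9.5 CPM in iBAT and 2930 ± 687 CPM in iWAT at day 0, and 22.9 ± 7.56 CPM in eWAT. At levels so low outside iWAT, passing the filter through iWAT favours such a difference. Of all features, 9.77%, 9.74% and 11.7% were lower in iBAT than in iWAT at days 0, 2 and 4. Those higher in iWAT than in eWAT were 5.01%, 5.03% and 4.49%. Among the iWAT libraries, 3 markers of germinal centre B cells (Rgs13, S1pr2 and Mybl1), the lymphocytes that divide in lymph nodes, summed to 10.7, 12.6, 7.2, 7.58 and 6.16 CPM in iWAT516, iWAT517, iWAT551, iWAT538 and iWAT555, and to 4.45 CPM or less in the other 7. Those 5 libraries had sums of 1091, 744.8, 695.7, 540.3 and 631.2 CPM of 31 cell cycle genes, against 336.7 to 450.2 CPM in the other 7. The line between the 5 and the 7 was drawn from these same values, so it tests nothing. Few reads stand behind the 3 markers: in these 5 libraries Rgs13 had 14, 31, 8, 8 and 15 reads and Mybl1 7, 7, 1, 12 and 17. S1pr2 weighed most in the marker sums, with 215 reads over all libraries, against 95 for Mybl1 and 90 for Rgs13. The 12 lymphocyte markers did not set these 5 apart (2633 to 3752 CPM, against 993.6 to 3297 CPM in the other 7), nor did Mybl1 alone (0.553 CPM in iWAT551, 2.35 CPM in iWAT548). In iBAT the 3 markers summed to 0 to 2.3 CPM and in eWAT to 0.503 to 6.75 CPM, the highest in eWAT538, which had the lowest eWAT sum of the 31 genes (149.5 CPM). In eWAT538 Rgs13 and Mybl1 had 0 reads, so its marker sum was S1pr2 alone. One of the 5 iWAT libraries, iWAT555, also had 4470 CPM of testis and epididymis markers. The part of lymphocytes in the depot differences was not tested, nor that of testis or epididymis RNA in the iWAT555 values.

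Genes of the cell cycle outside the members were read from lists of 31 further replication genes, 49 mitosis genes, 11 genes of the G1 cyclins, their kinases and E2F factors, and 18 brakes and quiescence genes with a row. In the 6 comparisons with day 0, edgeR called 0 genes of each list. At an unadjusted p under 0.05 there were at most 3 of the replication genes, 2 of the mitosis genes, 1 of the G1 genes and 4 of the brakes in any of these comparisons, in which 1.06% to 12.3% of all features were past that mark. In iBAT the 18 brakes summed to 2270 to 2500 CPM at day 0, then 1380 to 1680 CPM at day 2 and 1240 to 1560 CPM at day 4, with no overlap between either cold day and day 0. The replication genes summed to 394 to 511, then 231 to 383 and 217 to 404 CPM, and the G1 genes to 87.1 to 107, then 118 to 202 and 83.9 to 133 CPM; for both lists day 2 was clear of day 0 and day 4 overlapped with it. The mitosis genes summed to 2010 to 2790, then 831 to 2200 and 1200 to 3110 CPM, and both cold days overlapped with day 0. Of single iBAT features, 9.95% lay below day 0 without overlap at day 2 and 12.4% at day 4, and 5.78% and 6.7% above it. A few genes weigh most in such sums: over all libraries Tob1, Btg1 and Cdkn2c led the brakes with 45884, 27019 and 26978 reads. Tuba1b led the mitosis genes with 288050 reads, against 38938 for Tubb5, the next, so that sum mainly follows Tuba1b. Ccnd2 led the G1 genes with 12725 reads, against 4396 for Cdk4, the next. These sums were not tested. Between iBAT and iWAT at day 0, 18 of 41 tested mitosis genes were lower in iBAT and 1 was higher, 3 of 24 replication genes were lower and 1 higher, 1 of 10 G1 genes was lower, and 2 of 16 brakes were lower and 3 higher, against 9.77% of all features lower and 8.12% higher. Of those past the filter in both depots alone, 6 of 13 mitosis genes were lower and 1 higher, 2 of 18 replication genes were lower and 1 higher, 1 of 4 G1 genes was lower, and 2 of 16 brakes were lower and 3 higher, against 6.3% of such features lower and 9.46% higher. Over these genes the median log2 difference was −1.34 for mitosis and 0.07 for the brakes.

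Named from these lists by smallest adjusted p, Smc4, a condensin subunit that compacts chromosomes, averaged 8.67 ± 1.66 CPM in iBAT and 99.9 ± 48.9 CPM in iWAT at day 0 (log2 difference −3.52, edgeR adjusted p = 0.000831). Tubb5, a beta tubulin, averaged 159.4 ± 35.4 CPM in iBAT and 744.4 ± 454 CPM in iWAT, and Cdt1, which loads the MCM helicase, 13.7 ± 7.65 CPM in iBAT and 114.9 ± 70.7 CPM in iWAT. Higher in iBAT at day 0 were Gas1, a growth arrest gene (138 ± 54.6 CPM in iBAT and 11.9 ± 9.71 CPM in iWAT), Gmnn, geminin, which blocks Cdt1 (78.6 ± 42.5 CPM in iBAT and 18.1 ± 2.05 CPM in iWAT), and Ccng1, a p53 target (359.7 ± 114 CPM in iBAT and 75.7 ± 37.9 CPM in iWAT). At day 2 Cdt1, Pold1 (a subunit of DNA polymerase delta) and Cks2 were lower in iBAT than in iWAT and Gas1 was higher, and at day 4 Smc4, Cdca3 (tested through iWAT alone) and Cdt1 were lower and Gas1 and Gmnn higher. Ccnd2, cyclin D2, averaged 26.6 ± 8.74 CPM in iBAT and 175.1 ± 91.6 CPM in iWAT at day 0 (log2 difference −2.72, edgeR adjusted p = 0.0235), and also passed at day 4 (−2.87, adjusted p = 0.0165).

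Between iWAT and eWAT, Cdt1, E2f2 (an E2F factor) and Pold1 were the leading genes higher in iWAT at days 0 and 2, and Gmnn, E2f2 and Cdt1 at day 4, while Gas1 was lower in iWAT at all 3 days (11.9 ± 9.71 CPM in iWAT and 69.9 ± 16.1 CPM in eWAT at day 0, log2 difference −2.56). Between iBAT and eWAT, Gmnn was among the leading genes higher in iBAT at all 3 days (78.6 ± 42.5 CPM in iBAT and 14.8 ± 3.8 CPM in eWAT at day 0, log2 difference 2.41). Tob1, an antiproliferative gene, and Ccng1 joined it at day 0, E2f2 and Ccng2 at day 2, and E2f2 and Tob1 at day 4. Lower in iBAT than in eWAT at day 0 was Cdkn2b, an inhibitor of the cyclin D kinases. At day 2 Cdkn2b, Tuba1b and the inhibitor Cdkn1b were lower, and at day 4 Pole, Anln and Cks2. Pole and Anln did not pass the filter in both depots alone. Of the features that did, 2.72%, 7.21% and 7.08% were lower in iBAT at days 0, 2 and 4. Cdkn1c had at most 2 reads in any library, and Cdkn1a and Ccnd3 were not analysed here.

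Per length of transcript the members spanned a wide range. In iWAT, over all 12 libraries, Pcna stood highest at 79.3 CPM per kb, ahead of Stmn1 at 28.1, Mcm7 at 27.8 and Ccnd1 at 23.5 CPM per kb. Over all days Pcna was also highest in iBAT (31 CPM per kb) and in eWAT (38 CPM per kb). The place of Ccnd1 changed with the day: in iBAT it had 4.07, 15.1 and 8.93 CPM per kb at days 0, 2 and 4, against 10.8, 7.08 and 4.94 CPM per kb of Stmn1, and in eWAT 26.9, 66.5 and 8.57 CPM per kb, against 34.4, 50.4 and 29.4 CPM per kb of Pcna. Ccnb2, with 10 reads over all libraries, was the lowest in all 3 depots over all days, at 0.0774 CPM per kb in iWAT. Each member was read from 1 row, and how much of its RNA that row holds was not tested. Ccnd1 alone held 30.5% of member reads in eWAT, 14.5% in iBAT and 10.2% in iWAT.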

How the data were processed

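RNA-seq libraries of 3 fat depots were compared between days of cold within a depot and between depots at each day; groups were taken from the sample titles. The authors deposited 1 table per depot of raw counts per RefSeq accession. Per the submitters' processing notes, cutadapt, BWA and build mm10 were used; versions, counting, annotation release and strand use are not given in the sources used here. Reads of overlapping or antisense genes therefore cannot be told apart. The tables hold no 0; empty entries (NA) were taken as 0 counts. The labels do not say that libraries of a group came from separate animals, so p-values measure the spread between these libraries. Without molecular identifiers, counting error understates the spread.

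Accessions were matched to RefSeq on GRCm38.p6 (17030 of 17334) or GENCODE M21 (105). The main test used edgeR 4.0.16 (with limma 3.58.1) under R 4.3.3, with TMM, filterByExpr (minimum count 10, total 15), 1 mean per group, robust quasi-likelihood F-tests, two-sided, Benjamini-Hochberg over all features, threshold 0.05. Features tested were 8270 in iBAT, 9574 in iWAT, 10043 in eWAT and 11041 in the fit of all libraries, where depots were compared. SEs were taken from the F statistic, as the size of the log2 change over √F. Alternatives were RLE size factors, no filter, DESeq2 1.42.0, summed rows of a symbol, a library score (the projection on the within-group axis of the other 2 depots, from log2 CPM with a prior count of 2) as covariate, the label number as block, and leaving out libraries. The fit was tested on simulated data.

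Members, gene lists and tests were chosen with earlier results of these data known. Values per library are given for Mki67, Top2a, Pcna, Ccnd1 and Foxm1 and for the 3 members with the smallest p in each comparison with day 0; of the other lists, up to 3 genes per direction and comparison with the smallest adjusted p are named. Promoter motifs were searched in RefSeq windows on both strands, and levels per kb use the longest matching GENCODE transcript. One marker gene of the lists is not reported here and was left out of the sums.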

Additional observations from a re-analysis of the deposited data

Results flagged for a closer look

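The lowest or highest value was tested for standing apart in the groups of 4 or more libraries, iBAT at day 2 and iWAT at days 0 and 4. Each test took 1 member, or the sum of the members, in 1 group. Of 81 tests, 8 had a library far from the others by Dixon's 95% criterion. Chance gives about 1 in 20 for independent normal values, but these tests share libraries and used untransformed CPM. In iWAT at day 0, iWAT516 stood above the other 3 libraries for 4 members: Cdk1 (80.3 CPM, others 24.1 to 32), Aurka, the kinase of the spindle poles (50.5 CPM, others 11.8 to 14.8), Bub1b (57.6 CPM, others 6.78 to 9.48) and Ube2c (18.3 CPM, others 7.7 to 8.51). In iWAT at day 4, iWAT555 stood above the other 4 for 3 members: Tk1 (18.1 CPM, others 5.57 to 8.3), Aurka (29.6 CPM, others 8.86 to 12.5) and Foxm1 (20.2 CPM, others 3.02 to 6.03). In iBAT at day 2, iBAT534 stood above the other 3 for Bub1b (7.26 CPM, others 1.45 to 2.3). The 7 iWAT flags fall on only 2 libraries. One of them, iWAT555, also had 4470 CPM of testis and epididymis markers, whose part in its flags was not tested.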

How the results depend on the processing

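The 15 counts of members called by cold (9 within depots, 6 differences between depots) were 0 under every alternative run. Between depots no direction reversed. With DESeq2 the counts were 24, 15 and 18 for iBAT against iWAT at days 0, 2 and 4, 2, 2 and 4 for iBAT against eWAT, and 12, 11 and 7 for iWAT against eWAT. These are counts over all 31 members tested. Of all 11041 features, DESeq2 called 1824, 1362 and 1841 lower in iBAT than in iWAT and 952, 950 and 909 higher. It called 828, 741 and 770 higher in iWAT than in eWAT and 455, 929 and 748 lower. With RLE size factors iBAT against eWAT had 1 at day 2. With the library score the counts were 1, 2 and 1 for iBAT against eWAT, and 5 and 2 for iWAT against eWAT at days 2 and 4. Without iBAT539 and iBAT548 iBAT against eWAT had 1 at day 2 and 1 at day 4. Leaving out 1 library gave 5 to 17, 5 to 10 and 6 to 15 for iBAT against iWAT at days 0, 2 and 4, 1 to 12, 0 to 3 and 1 to 1 for iWAT against eWAT, and 0 to 0, 0 to 1 and 0 to 1 for iBAT against eWAT. The cause of these moves was not tested. RLE moved the median of all features by up to 0.175 (log2), for the day 4 change of iBAT minus that of iWAT. Same-numbered libraries of different depots correlated from −0.439 to 0.364, so the numbers are not shown to pair them; with the number as a replicate block, iWAT against eWAT had 4 members at day 0, iBAT against iWAT 2 at day 2, and iBAT against eWAT 3 at day 4. No paired analysis was possible within a depot because days share no label numbers. Depth limits iBAT most, where 261 to 938 reads per library cover the 34 genes.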
